A study of Arabidopsis thaliana with 6 samples.

Results

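AT3G04000, ATMDAR2 and CCS are 3 Arabidopsis thaliana genes of carbonyl and redox metabolism, and their transcript levels were compared between leaves of sto2 mutant plants and of wild type. They were taken as the probe sets whose single gene in the array's gene table is one of these names, which gave 3 of the 13513 probe sets that pair with 1 gene. The genes were picked with their sto2 and wild-type values known, so the differences below are descriptions and carry no test of their own. The sto2 group held 3 samples of a null mutant and the wild-type group held 3 samples of the Col-0 accession, called biological replicates by the submitters. All plants grew in soil for 3 weeks with 16 h of light at 22 °C and 8 h of darkness at 18 °C, had no further treatment, and gave total RNA from expanding rosette leaves 3 to 6. The labels give no locus for STO2, no number of plants per sample and no further mutant allele or rescued line, so the mutated gene itself was not used as a check. Signals are on the linear scale of the deposited values, with the 6 array medians between 37 and 38.55 units.

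The 3 products act at different steps of the defence against reactive oxygen and its by-products. Oxidised membrane lipids break down into aldehydes and other reactive carbonyls, and short-chain dehydrogenase/reductases such as the product of AT3G04000 reduce the carbonyl group with NADPH. Ascorbate that has given up an electron to a peroxide becomes the monodehydroascorbate radical, which monodehydroascorbate reductases, here the cytosolic enzyme encoded by ATMDAR2, turn back into ascorbate. CCS is the chaperone that hands copper to copper/zinc superoxide dismutases, the enzymes that convert superoxide into hydrogen peroxide.

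Each of the 3 transcripts had a higher mean in sto2 leaves, and the size of the difference ran from about 2-fold for the carbonyl reductase gene down to a small one for the copper chaperone gene. All 3 read above the background of their array on every array, where background is the highest reading of 27 control probe sets for bacterial transcripts, between 9.5 and 18.4 units. The mean signal over the 6 arrays was higher than that of 57.6% of the 22746 probe sets for AT3G04000, of 80.9% for ATMDAR2 and of 96.8% for CCS. Those ranks describe probe brightness and do not order the transcripts by abundance.

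The carbonyl reductase gene AT3G04000, on chromosome 3, had the highest ratio of sto2 to wild-type signal among the 3 genes. Its difference of means in linear units was the smallest of the 3, at 40.8 against 62.3 for ATMDAR2 and 91.4 for CCS. AT3G04000 read 74.5, 69.2 and 80.8 on sto2 arrays 1, 2 and 3, against 35.1, 34.4 and 32.5 on wild-type arrays 1, 2 and 3. Every sto2 array was high and every wild-type array low, with no overlap, and the lowest sto2 reading was 1.97 times the highest wild-type reading. The means were 74.8 ± 5.81 in sto2 and 34.0 ± 1.35 in wild type (SD, n = 3 arrays each), a ratio of 2.201. On the log2(signal + 16) scale, where 16 was added to damp noise at low signal, the difference was 0.86 ± 0.08 (SE). This scale understates the change of a dim transcript, and the ratio of the linear means is the larger figure for that reason. The wild-type readings lay close to the background, as little as 1.87 times the highest bacterial control of their array.

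ATMDAR2 (AT5G03630, on chromosome 5) differed less in size but varied little among arrays of a genotype. Its signal was 184, 189 and 194.2 on sto2 arrays 1, 2 and 3, against 128.2, 128.6 and 123.5 on wild-type arrays 1, 2 and 3. The groups did not overlap, and the lowest sto2 array stood 55.4 units above the highest wild-type array. The coefficient of variation was 2.70% in sto2 and 2.24% in wild type, below that of AT3G04000 at 7.76% and 3.96%. Means of 189 ± 5.10 in sto2 and 127 ± 2.84 in wild type (SD, n = 3 each) gave a ratio of 1.49, and the log2(signal + 16) difference was 0.52 ± 0.07 (SE).

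CCS (AT1G12520, on chromosome 1), the brightest of the 3 probe sets, had overlapping groups. The readings were 913.2, 817.7 and 908.9 on sto2 arrays 1, 2 and 3, against 865.4, 775.6 and 724.5 on wild-type arrays 1, 2 and 3. Wild-type array 1 read above sto2 array 2, and those arrays alone made the groups overlap. The means of 879.9 ± 53.9 in sto2 and 788.5 ± 71.3 in wild type (SD, n = 3 each) differed by 91.4 units, a ratio of 1.12. The log2(signal + 16) difference of 0.16 ± 0.09 (SE) ran from 0.10 without wild-type array 3 to 0.22 without wild-type array 1.

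**Figure D1:**
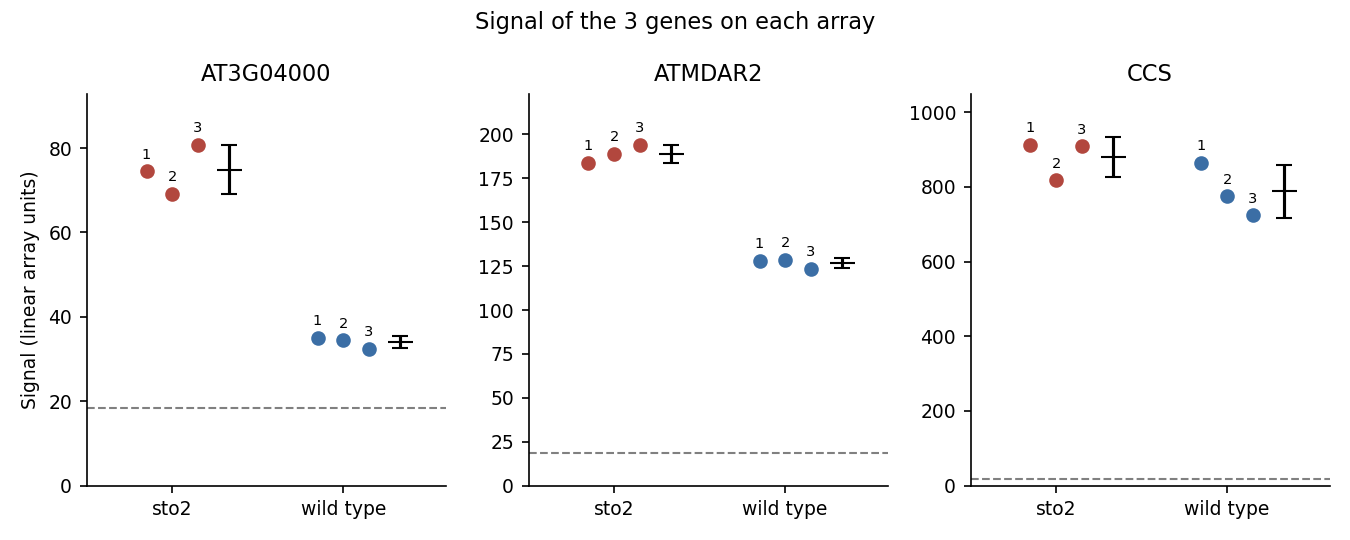
Signal in linear array units of AT3G04000, ATMDAR2 and CCS on each of the 3 sto2 and 3 wild-type arrays, numbered by replicate, with the group mean ± SD as a black bar; the dashed line is the highest bacterial control reading on any array, 18.4 units. The sto2 points of AT3G04000, 69.2 to 80.8, and of ATMDAR2, 184 to 194.2, lie above all wild-type points, while the CCS groups overlap.

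Over the whole array, 1 of the 3 genes, AT3G04000, was among the probe sets called higher in sto2 at an adjusted p below 0.05, which were 0.0572% of the 22746 tested, and 0 of the 3 were among those called lower, 0.0703%. The 13 probe sets called higher became 3 to 14 when 1 array was left out and 0 to 117 under the other settings. AT3G04000 was no longer past the threshold without any 1 of the 6 arrays, with a pseudocount of 1 or with the replicate number as a block. Without any 1 array its log2 difference stayed between 0.81 and 0.90. Groups that did not overlap, with sto2 higher, were seen for 2 of the 3 genes and for 9.01% of all probe sets, and with sto2 lower for 0 of the 3 and for 10.2% of all. The log2 difference was larger than that of 99.8% of all probe sets for AT3G04000, of 98.98% for ATMDAR2 and of 82.6% for CCS. As the genes were picked from this contrast, these shares only place them within it.

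**Figure D2:**
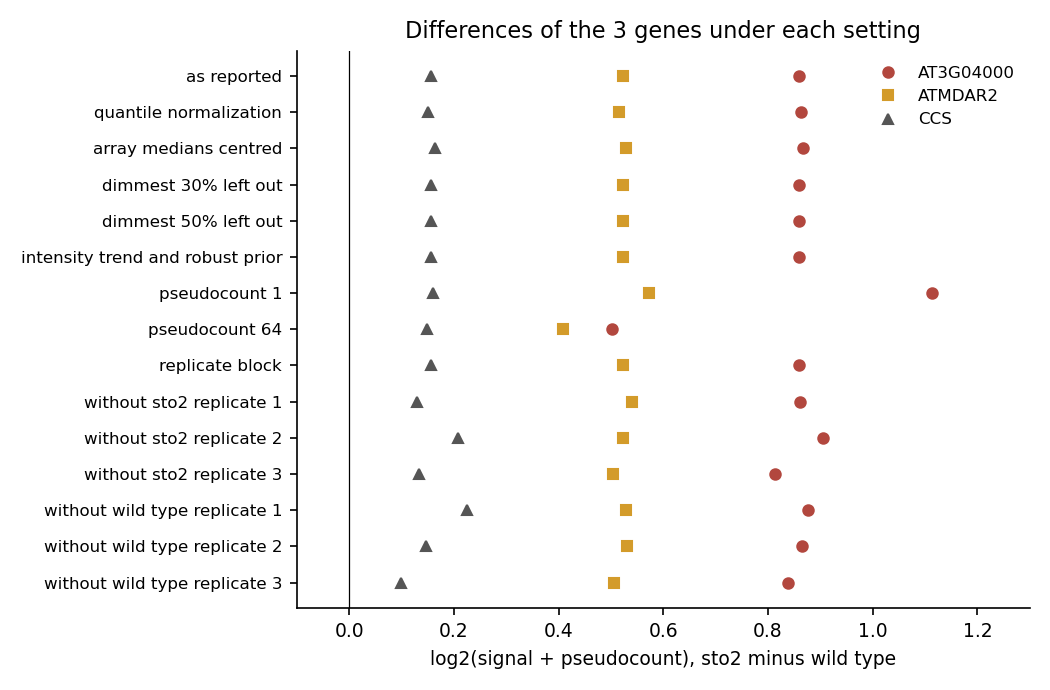
The sto2 minus wild-type log2 difference of AT3G04000, ATMDAR2 and CCS as reported and under 14 other settings of the analysis (1 row each). Without any 1 array, AT3G04000 stays between 0.81 and 0.90, ATMDAR2 between 0.50 and 0.54 and CCS between 0.10 and 0.22; a pseudocount of 64 in place of 16 brings AT3G04000 to 0.50 and ATMDAR2 to 0.41.

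**Figure D3:**
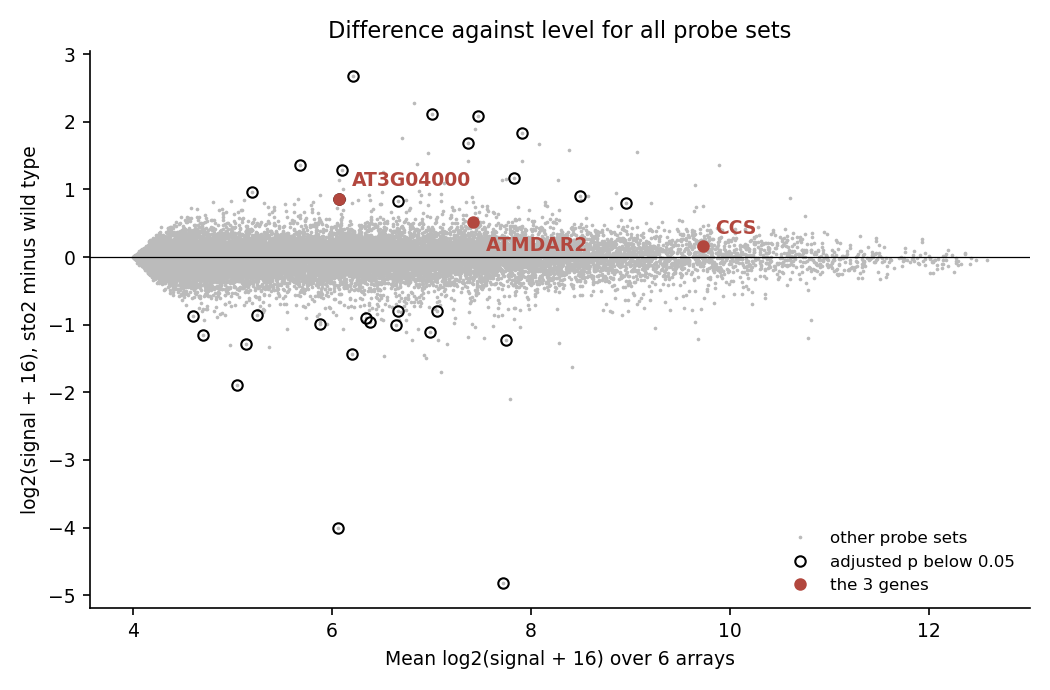
The log2(signal + 16) difference, sto2 minus wild type, of each of the 22746 probe sets against its mean over the 6 arrays, with the 3 genes as filled red points and the 29 probe sets past an adjusted p of 0.05 as open circles. AT3G04000 at 0.86 and ATMDAR2 at 0.52 lie in the upper part of the cloud, above 99.8% and 98.98% of all probe sets. CCS at 0.16 lies well inside it.

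The arrays that stood highest or lowest within a genotype were partly shared. Wild-type array 3 gave the lowest wild-type reading of all 3 genes, and sto2 array 2 gave the lowest sto2 reading of AT3G04000 and CCS. Sto2 array 3 read highest for AT3G04000 and ATMDAR2, and sto2 array 1 for CCS. As a reading of RNA quality, the 3' signal of housekeeping controls was divided by their 5' signal. The log2 of this ratio averaged 2.05 ± 0.25 in sto2 and 2.57 ± 0.06 in wild type (SD, n = 3 each) for 1 of 2 actin controls, and the groups did not overlap. A 2-sided exact permutation test gave p = 0.1, the lowest p possible with these group sizes, and 0.6 after adjustment across 6 such ratios. The differences of the remaining 5 lay between -0.08 and 0.05, and the part of RNA quality in the differences of the 3 genes was not tested.

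Cell type markers were checked because whole leaves were sampled, where more cells of a type and more RNA per cell cannot be told apart. The 3 measured photosynthesis markers of 5 listed, RCA, LHCB4.1 and LHCB4.2, summed to between 13706 and 13989 units in sto2 and between 13651 and 14818 in wild type. The shoot apex markers CLV3 and UFO (2 of 3 measured) exceeded the bacterial controls on 0 arrays, and the root markers PYK10 and EXPA7 (2 of 3 measured) exceeded them on 1 array each. The stomatal lineage markers, all 3 measured, summed to between 72.7 and 84 units in sto2 and between 59.4 and 89.8 in wild type. This sum was mostly FMA, since MUTE and SPCH exceeded the bacterial controls on 1 array each. The 2 measured trichome markers of 4 listed, AT5G06700 and SIM, summed to between 369.7 and 411.9 units in sto2. In wild type the sum lay between 464.2 and 476.3, without overlap. Most of it came from AT5G06700, at 314 ± 15.4 in sto2 and 380 ± 6.69 in wild type, while the groups of SIM alone overlapped. Neither passed over all probe sets, of which 10.2% had groups without overlap and with sto2 lower. The part of the cell type markers in the differences of the 3 genes was not tested.

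Genes next to the 3 on the chromosome gave a view of their surroundings, in the gene order of the reference assembly TAIR10.1. AT3G04000 has a short-chain reductase gene, AT3G03980, as the second gene before it, which read 127 ± 1.85 in sto2 and 105 ± 6.40 in wild type. The groups of AT3G03980 did not overlap, with 125, 128.1 and 128.3 on the sto2 arrays against 111.4, 98.7 and 103.7 on the wild-type arrays, but it did not pass over all probe sets (log2 difference 0.25 ± 0.07, limma adjusted p = 0.22). The annotated span of AT3G04010, the next gene after AT3G04000, overlaps that of AT3G04000. AT3G04010 read 3.6, 2.2 and 7.9 on the sto2 arrays against 1.7, 28.4 and 2.1 on the wild-type arrays, so it exceeded the bacterial controls only on wild-type array 2, and no pattern can be read from it. AT3G04020, the second gene after, had a log2 difference of 0.13 ± 0.11. Of the 4 genes around ATMDAR2, SBE2.2, which encodes a starch branching enzyme, had a difference of 0.15 ± 0.12 and AT5G03610 one of 0.26 ± 0.13. The 2 immediate neighbours of ATMDAR2, AT5G03620 and AT5G03640, exceeded the controls on 1 and 0 arrays. Beside CCS, AT1G12500 had a difference of -0.01 ± 0.12 and AT1G12490 exceeded the controls on 0 arrays. None of these 9 measured neighbours passed over all probe sets.

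The genes with the profile closest to each of the 3 were found among the other 13512 probe sets with 1 gene, by the root mean square difference of log2(signal + 16) values over the 6 arrays after centring each gene on its mean. For AT3G04000 the closest was AT2G36885, at 0.04 log2 units against a median of 0.46 for all genes compared. AT2G36885 read 495.4, 432.8 and 499.7 on sto2 arrays 1, 2 and 3, against 253.9, 243.9 and 244.5 on wild-type arrays 1, 2 and 3. Like AT3G04000, it had its lowest sto2 reading on array 2 and its highest on array 3. AT1G09740 and MRL7-L followed, both at 0.13. For ATMDAR2 the closest with signal above background was Cpn60beta4, a gene named for a chaperonin subunit, at 0.06, which read 245 ± 8.20 in sto2 and 173 ± 8.98 in wild type. The other 2 of its closest 3, AT5G55750 and AT4G08600, exceeded the bacterial controls on 0 arrays. For CCS the closest were AT1G48610 and AT4G24830, both at 0.03, and AT3G63050, at 0.04, which exceeded the controls on 1 array. Profiles flat or stepped between the genotypes are common to many genes, so closeness over 6 arrays describes the readings and no more.

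**Figure D4:**
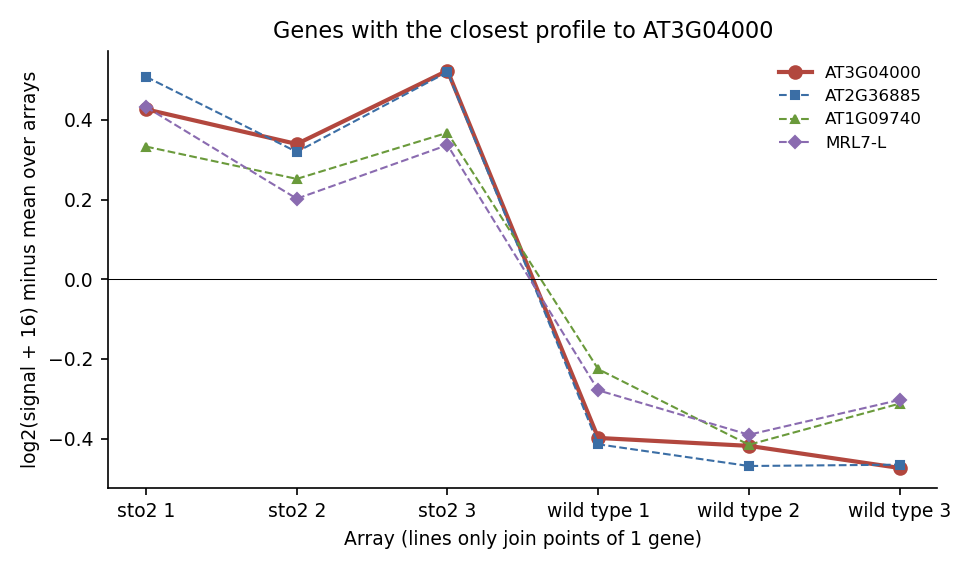
Centred log2(signal + 16) of AT3G04000 and of the 3 genes with the closest profile, AT2G36885, AT1G09740 and MRL7-L, on sto2 arrays 1 to 3 and wild-type arrays 1 to 3. The line of AT2G36885 runs within 0.04 log2 units (root mean square) of AT3G04000. The lines of the other 2 lie nearer to 0, each at a root mean square difference of 0.13 from AT3G04000.

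Other genes of the same pathways were taken from lists that also hold many transcripts without a named probe set. Besides the 3 genes, the lists held 117 genes, and 31 of them could be matched to a probe set with 1 gene. None of the 31 passed over all probe sets, where 0.127% were called: 0 were called higher and 0 lower, with limma adjusted p-values between 0.15 and 0.99. At an unadjusted limma p below 0.05 there were 9 of the 31, or 29.0%, against 14.1% of all probe sets. Groups that did not overlap were seen for 7 of the 31, or 22.6%, against 19.2%. These sets are unlike in brightness: 26 of the 31 exceeded the bacterial controls on all arrays, against 14157 of the 22746 probe sets. The lists were also chosen with earlier results of these data known, so the shares cannot show whether the lists are enriched or not. Their median log2 difference was -0.02, and that of all probe sets was -0.01.

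Among carbonyl detoxification genes, 7 others were measured, 0 passed, and their median log2 difference was 0.04. The chloroplast enzyme gene AOR, whose product reduces the double bond of reactive alkenals and alkenones, read 467 ± 51.5 in sto2 and 538 ± 37.4 in wild type (log2 difference -0.20 ± 0.10). AER, which encodes an alkenal reductase, read 104 ± 8.83 in sto2 and 91.5 ± 9.94 in wild type (0.16 ± 0.10). ALDH3F1, an aldehyde dehydrogenase gene, read 349.7 ± 28.9 in sto2 and 349 ± 54.0 in wild type. AT1G54870, which encodes an aldehyde reductase of the short-chain family, read 9.77 ± 5.10 in sto2 and 10.7 ± 2.05 in wild type and exceeded the bacterial controls on 1 array, and AT3G59845 did so on 3. The groups of all 7 overlapped.

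Short-chain reductases taken as relatives of AT3G04000, without a comparison of sequences, had 3 measured members and a median of 0.25, and 0 passed. AT4G13180 read 95, 97.7 and 74.8 on sto2 arrays 1, 2 and 3, against 77.5, 55.2 and 58.1 on wild-type arrays 1, 2 and 3 (log2 difference 0.41 ± 0.14, adjusted p = 0.28). Its groups overlapped, since wild-type array 1 read above sto2 array 3. AT3G46170 read below 1 unit on every array, and AT3G03980 is given above. Whether the probes of AT3G04000 also bind transcripts of its relatives was not tested.

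The ascorbate cycle around ATMDAR2 was covered only in part. None of the other 7 monodehydroascorbate and dehydroascorbate reductase genes of the list was the single gene of a probe set in the gene table, so ATMDAR2 could not be set against its isoforms. The chloroplast ascorbate peroxidase genes SAPX and TAPX, whose products use ascorbate to remove hydrogen peroxide, had log2 differences of 0.06 ± 0.09 and -0.02 ± 0.09. Of 4 ascorbate synthesis genes, 0 passed and the median was -0.07. VTC4, a phosphatase gene of that route, read 165.5, 108.6 and 140.4 on sto2 arrays 1, 2 and 3, against 155.6, 214.5 and 196.4 on wild-type arrays 1, 2 and 3, so the groups overlapped (-0.42 ± 0.17, adjusted p = 0.34). GLDH, which encodes the enzyme of the last step, and AT4G33670, which encodes L-galactose dehydrogenase, had differences of -0.08 ± 0.11 and -0.07 ± 0.07, and the epimerase gene GME one of 0.10 ± 0.12. The glutathione reductase genes GR1 and GR, which keep glutathione reduced for the same cycle, had 0.03 ± 0.09 and -0.13 ± 0.09.

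For CCS, the copper/zinc dismutases it serves had no probe set of their own in the gene table used here: of 8 superoxide dismutase genes only AT3G56350, a manganese-type member, was measured, and it exceeded the bacterial controls on 1 array. Of 18 other copper transport and chaperone genes, 1 was measured. This was AT1G02410, related to the copper-delivery factor COX11 of cytochrome oxidase, which read 178 ± 4.99 in sto2 and 153 ± 10.4 in wild type. The groups of AT1G02410 did not overlap, and it did not pass (0.20 ± 0.08, adjusted p = 0.32).

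The thiol-based peroxide and redox enzymes gave differences of both signs. In the list of catalases and thiol peroxidases, 3 of 17 genes were measured, all of them peroxiredoxins, and 0 passed. PRXIIF, the mitochondrial peroxiredoxin gene, read 350.1 ± 8.92 in sto2 and 278 ± 14.3 in wild type (0.32 ± 0.07, adjusted p = 0.15), and AT3G52960, a chloroplast peroxiredoxin gene, read 1031 ± 63.5 in sto2 and 847 ± 88.5 in wild type (0.28 ± 0.10, adjusted p = 0.28). The groups of both did not overlap, with sto2 higher, as was seen for 9.01% of all probe sets. AT3G11630, a 2-Cys peroxiredoxin gene, had a difference of -0.03 ± 0.07.

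All 6 measured thioredoxin and glutaredoxin system genes of 13 listed had lower means in sto2, with a median of -0.16, and 0 passed; 52.2% of all probe sets had lower means. TRXF2, a chloroplast f-type thioredoxin gene, read 584 ± 27.4 in sto2 and 725 ± 32.7 in wild type (-0.30 ± 0.08, adjusted p = 0.17). AT2G04700, which encodes a ferredoxin-thioredoxin reductase subunit, had -0.20 ± 0.07 (adjusted p = 0.29), and NTRC, a chloroplast NADPH-dependent thioredoxin reductase gene, had -0.18 ± 0.09 (adjusted p = 0.41). The groups of TRXF2, AT2G04700 and NTRC did not overlap, with sto2 lower, as was seen for 10.2% of all probe sets. ATHM2, GRXC1 and GRXC2 lay between -0.15 and -0.05, and their groups overlapped.

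Of 11 transcripts known to rise in oxidative stress, 2 were measured. AT2G21640, which encodes a mitochondrial protein induced by oxidative stress, read 43.3 ± 3.36 in sto2 and 34.4 ± 4.76 in wild type (0.24 ± 0.09, adjusted p = 0.33), and its groups touched at 39.8 units on sto2 array 1 and wild-type array 2. GSTU25, a glutathione transferase gene, exceeded the bacterial controls on 0 arrays.

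**Figure D5:**
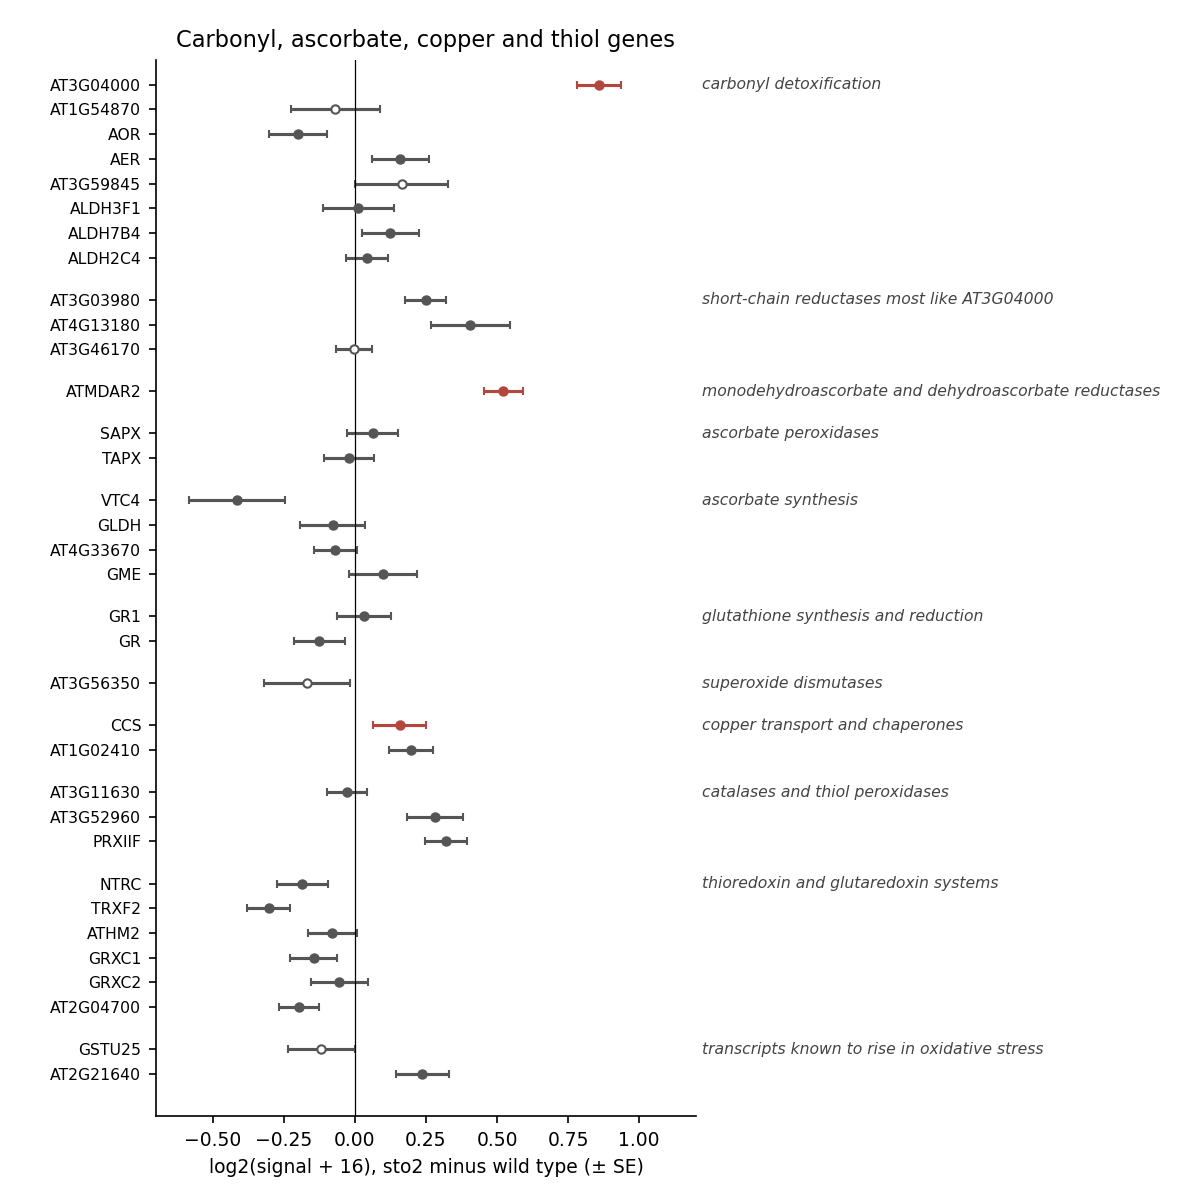
The log2(signal + 16) difference, sto2 minus wild type, ± SE for AT3G04000, ATMDAR2 and CCS in red and for the 31 other measured genes of the lists in grey, grouped by list; open points did not exceed the bacterial controls on all 6 arrays. The grey points lie between -0.42 and 0.41, against 0.86 for AT3G04000 and 0.52 for ATMDAR2.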

How the data were processed

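Single-colour Affymetrix arrays of 3 sto2 and 3 wild-type leaf samples were used, grouped by the sample titles. Per the labels' protocols, a service provider labelled, hybridised and scanned the RNA. The deposited values are linear signal intensity values from a summary method not given in the sources used here. Every array had a 2% trimmed mean of 100.009, which points to 1 scaling factor per array, and medians differed by at most 0.06 on the log2 scale, so no further normalization was applied. There were no detection calls, and the bacterial controls stood in for them. Of 22810 probe sets, 64 controls were left out. In the gene table, 13513 probe sets had 1 gene, 503 had several, and 8730 had no entry. Loci came from RefSeq (TAIR10.1), and positions are left out because the labels name no genome build for the array.

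Log2(signal + 16) was fitted with limma 3.58.1 in R 4.3.3 (lmFit, eBayes, 2-sided, Benjamini-Hochberg over 22746 probe sets, threshold 0.05); the procedure was tested on simulated data. The 3 genes, the lists and the background measure were chosen with earlier results of these data known. Up to 6 measured members of each list, in list order, were named, with all that passed; further genes are summarised. Alternatives were quantile normalization, median centring, 2 filters on dim probe sets, an intensity trend, pseudocounts of 1 and 64, the replicate number as a block and leaving out each array. No probe or promoter sequence was used here. The number of arrays limits the precision.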

Additional observations from a re-analysis of the deposited data

How the results depend on the processing

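The higher means of AT3G04000, ATMDAR2 and CCS in sto2 kept their sign under all 14 alternatives run, most of which could not have changed it. The groups of AT3G04000 and ATMDAR2 do not overlap, so their sign holds under any pseudocount and without any 1 array. The filters, the intensity trend and the block leave every difference as it was by construction. Leaving out each array in turn gave log2 differences of 0.81 to 0.90 for AT3G04000, 0.50 to 0.54 for ATMDAR2 and 0.10 to 0.22 for CCS. The pseudocount set the size for the dimmer genes by construction: with 1 added the difference was 1.11 for AT3G04000 and 0.57 for ATMDAR2, and with 64 added it was 0.50 and 0.41. AT3G04000 was past the adjusted threshold in 6 of the 14 alternatives and ATMDAR2 in 4, while CCS was in 0. Because these genes were picked from this contrast, that tally only describes how the threshold moved with the setting. It is no test of the genes.

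The number of calls over all probe sets, 29 in total with 13 higher and 16 lower, moved with the setting. It was 147 (67 higher, 80 lower) without the dimmest 30% of probe sets and 227 (117 and 110) without the dimmest 50%, where fewer probe sets were tested. It was 72 (36 and 36) with an intensity trend, 83 (45 and 38) with a pseudocount of 64 and 17 (11 and 6) with a pseudocount of 1; centring on medians gave 22 higher. Without sto2 arrays 1, 2 and 3 in turn it was 8, 7 and 5, and without wild-type arrays 1, 2 and 3 it was 22, 7 and 11, a range of 5 to 22 (3 to 14 higher, 2 to 8 lower), in fits with fewer samples. The cause of the other shifts was not tested.

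With the replicate number as a block, 2 probe sets were called (0 higher, 2 lower). Deviations of same-numbered arrays from their group means correlated at -0.42, -0.27 and 0.12, and those of differently numbered arrays between -0.35 and 0.46. Only probe sets with a mean signal above the median of all probe sets entered these correlations. The deviations of a gene sum to 0 within each group of 3 arrays, which ties these correlations together. They therefore cannot decide whether the numbers pair the samples. None of the 31 pathway genes passed under any alternative in which it was tested, and 23 kept their sign in those. The filters on dim probe sets removed AT1G54870, AT3G46170, AT3G56350 and GSTU25, and the stricter one also AT3G59845. GRXC2 was the 1 thioredoxin-system gene whose sign changed. Signals near the bacterial controls limit AT1G54870, AT3G59845, AT3G56350, AT3G46170 and GSTU25.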
